A study of Mus musculus with 14 samples.

Results

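The Runx family comprises the DNA-binding subunits Runx1, Runx2 and Runx3, their partner Cbfb and the corepressor Runx1t1. These 5 genes, chosen by name from 21938 protein-coding genes, are described here by the H3K4me3 peaks at their transcription start sites (TSSs) and by the putative enhancers in and around them. The data came from ChIP-seq (sequencing of immunoprecipitated chromatin) for H3K4me3, histone H3 trimethylated at lysine 4, in immortalized mouse embryo fibroblasts (iMEFs). The cells carried floxed Ash2l alleles and Cre-ER, exon 4 of the endogenous gene had been deleted, and ASH2L, which the KMT2 methyltransferases need to methylate H3K4 efficiently, was supplied only as a fusion of FKBP with the human protein. Per the study, most experiments used a single clone, NG3. The untreated controls, titled WT, carried the same deletion and the same lentiviral fusion. The compound dTAG brings FKBP to a ubiquitin ligase, which marks the fusion for degradation. The 12 H3K4me3 libraries fell into 6 groups of 2 replicates (untreated, or treated with dTAG for 30 min, 2 h, 4 h, 8 h or 16 h), and 2 inputs represented untreated and 16 h cells.

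The values are positions from 2 lists. One holds 25431 H3K4me3 peaks of the whole series, and the other holds 32965 putative enhancers defined by the authors in control cells from H3K4me1, H3K27ac and accessible chromatin. Neither list separates samples or gives a signal, so depth is unknown, no value below carries a replicate error, and no time points could be compared. A listed peak shows that H3K4me3 was called somewhere in the series, not in which samples. The label of the cells was checked with marker genes. All 10 fibroblast markers had a start-site peak, against 59.1% of all coding genes. The widest were at Twist1 (2909 bp), Col1a1 (2761 bp) and Pdgfrb (2721 bp). The narrowest were at Col3a1 (382 bp), Fn1 (750 bp) and S100a4 (944 bp). Of other markers, 1 of 7 haematopoietic (Cd34, 607 bp), 2 of 5 epithelial (Epcam, 724 bp, and Cdh1, 602 bp), 1 of 4 endothelial (Kdr, 1009 bp), 1 of 5 neural (Syt1, 1737 bp), 0 of 4 osteoblast and 3 of 4 chondrocyte markers (Sox9, 2947 bp, Col2a1, 1153 bp, and Comp, 283 bp) had one.

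Runx proteins bind DNA through a Runt domain and recognise the core TGTGGT, and binding is strengthened by CBFB, which does not touch DNA itself. Below, the Runx core means these exact letters on either strand, and variants of them were not searched. Runx1 is required for the formation of blood stem cells, Runx2 for bone formation, and Runx3 acts in T cells and in sensory neurons. Runx1t1, also known as ETO, is a corepressor that leukaemic cells can carry fused to RUNX1. Each of the 3 Runx genes has a distal promoter, P1, and a proximal promoter, P2, which give proteins with different N-termini. H3K4me3 marks promoters that are active or poised, and is most frequent at CpG-rich promoters.

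To compare the distal promoters by sequence, windows from 250 bases before to 50 after the RefSeq start (GRCm38.p6) were searched for the longest stretch that all 3 P1 promoters share. Windows were listed for 4 of the 5 members, Runx1, Runx2, Runx3 and Cbfb. The shared stretch had 18 bases and held the reverse complement of the Runx core, ACCACA, 2 times in tandem. It is shown here in 30-base segments, 5′ to 3′ on the strand of each gene, with the shared stretch in capitals.
Runx1 P1, chr16:92826025-92826054, minus strand: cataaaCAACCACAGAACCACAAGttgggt
Runx2 P1, chr17:44814583-44814612, minus strand: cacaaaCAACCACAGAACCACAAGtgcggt
Runx3 P1, chr4:135120503-135120532, plus strand: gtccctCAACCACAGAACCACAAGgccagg
The stretch began 26 bases after the RefSeq start of Runx1 and 21 bases after that of Runx2, but 136 bases before that of Runx3. On chromosomes 1 to 19, X and Y it occurred at 3 places on either strand, which are these 3 promoters. Of 32851 promoter windows, 4 held it. The window besides the 3 Runx windows was that of Gm16225, on the opposite strand at Runx3 P1. Of the 3 places, 1 lay inside an H3K4me3 peak, the one at Runx2 P1. A match describes the letters only, and no binding was measured.

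H3K4me3 peaks were found at the start sites of all members. A gene was given each peak with at least 1 base no farther than 1 kb from a GENCODE start site of that gene. By this rule 5 of 5 members had a peak, against 59.1% of all coding genes. The number of peaks was 3 for Runx1, 4 for Runx2, 1 for Runx3, 3 for Cbfb and 4 for Runx1t1, 15 in all. Thus 4 of 5 members had more than 1 peak. This holds for 5231 coding genes, 23.8% of all 21938. Any peak was present at 12966 coding genes, and these had a median of 1 peak. The 15 peaks were 224 to 3386 bp wide (median 959 bp). Of these, 9 held a start site, and 29 of the members' 36 distinct start sites lay inside a peak. A CpG island overlapped 8 of the 15 peaks, against 74.4% of the start-site peaks of coding genes.

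**Figure D1:**
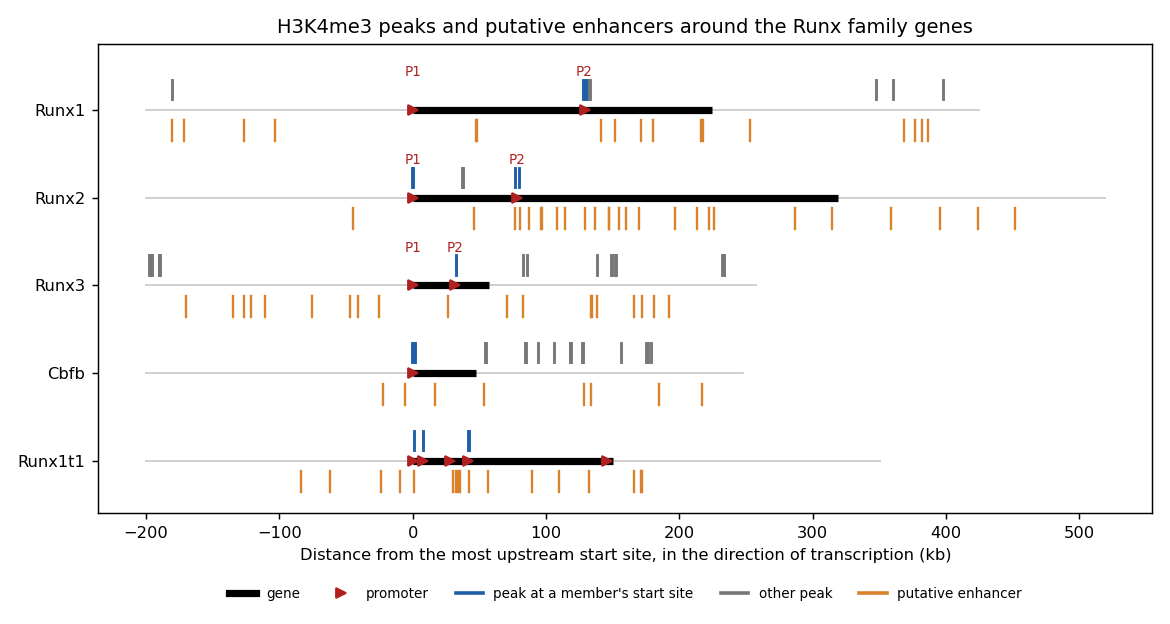
Map of the 5 genes. The x axis gives the distance from the most upstream start site in kb, in the direction of transcription, black bars are genes with 200 kb of flank in grey, red arrowheads are promoters, blue ticks are peaks at a member's start sites, grey ticks are other peaks and orange ticks are putative enhancers. Runx1 P1 and Runx3 P1 carry no blue tick, and the enhancers of Runx2 lie mostly downstream of P2.

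Use of the distal and proximal promoters was compared first, since the Runx genes differ here. Transcripts were sorted by the N-terminus they encode. Of the 6 promoters, 4 were marked: both promoters of Runx2, and P2 but not P1 of Runx1 and Runx3.

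For Runx1, the start-site peaks surrounded P2. P1 (start sites 92826149 and 92825778, chromosome 16, minus strand) had no peak within 1 kb, and the nearest peak was 127024 bp away. P2 begins 128821 bp downstream, at 92697328. Its peaks were 1283 bp (chr16:92697472-92698754, intronic, upstream of the start), 822 bp (chr16:92696520-92697341, 98.4% exonic, holding the start) and 1748 bp (chr16:92694436-92696183, holding a further start of the P2 class at 92696125). P2 thus had H3K4me3 on 1296 bp of the 2 kb upstream and on 1664 bp of the 2 kb downstream. For marked first start sites of coding genes the medians were 399 bp upstream and 1032 bp downstream. There were 2 further peaks of 449 bp and 283 bp just downstream, in the gene body, at no start site.

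Runx2 was marked at both promoters. At P1 (first start 44814797, chromosome 17, minus strand) a peak of 878 bp (chr17:44814033-44814910, 87.1% exonic) held all 3 P1 start sites, and a peak of 547 bp (chr17:44814972-44815518) lay upstream of the gene. At P2, which begins 78149 bp downstream at 44736648, a peak of 3386 bp (chr17:44733527-44736912) held all 4 start sites of the class, and a peak of 1462 bp (chr17:44737096-44738557) lay in the intron upstream. The 3386-bp peak was wider than 98.9% of the start-site peaks of coding genes. The antisense gene Runx2os1 also starts inside it, so the peak belongs to both genes.

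Runx3 had a single peak. P1 (135120652, chromosome 4, plus strand) had none within 1 kb, and the nearest peak was 31394 bp away. P2, 31844 bp downstream at 135152496, lay in a peak of 2364 bp (chr4:135152046-135154409, 39.1% exonic), which covered 450 bp upstream of the start and 1914 bp downstream.

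The P1 promoters had fewer CpGs than the P2 promoters. Over 500 bp on each side of the first start, the ratio of observed to expected CpGs was 0.310 at P1 and 0.865 at P2 of Runx1, 0.164 and 0.909 for Runx2, and 0.361 and 0.949 for Runx3. The 1-kb windows held 17, 8 and 24 CpGs at the P1 promoters and 83, 68 and 130 at the P2 promoters. First start sites of coding genes had a median ratio of 0.739 with a peak and 0.202 without one (quartiles of the latter 0.122 and 0.335). Hence P1 of Runx2, the marked P1, had the lowest ratio of the 6 promoters. Its peaks overlapped no CpG island, and the nearest island was 37170 bp away.

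**Figure D2:**
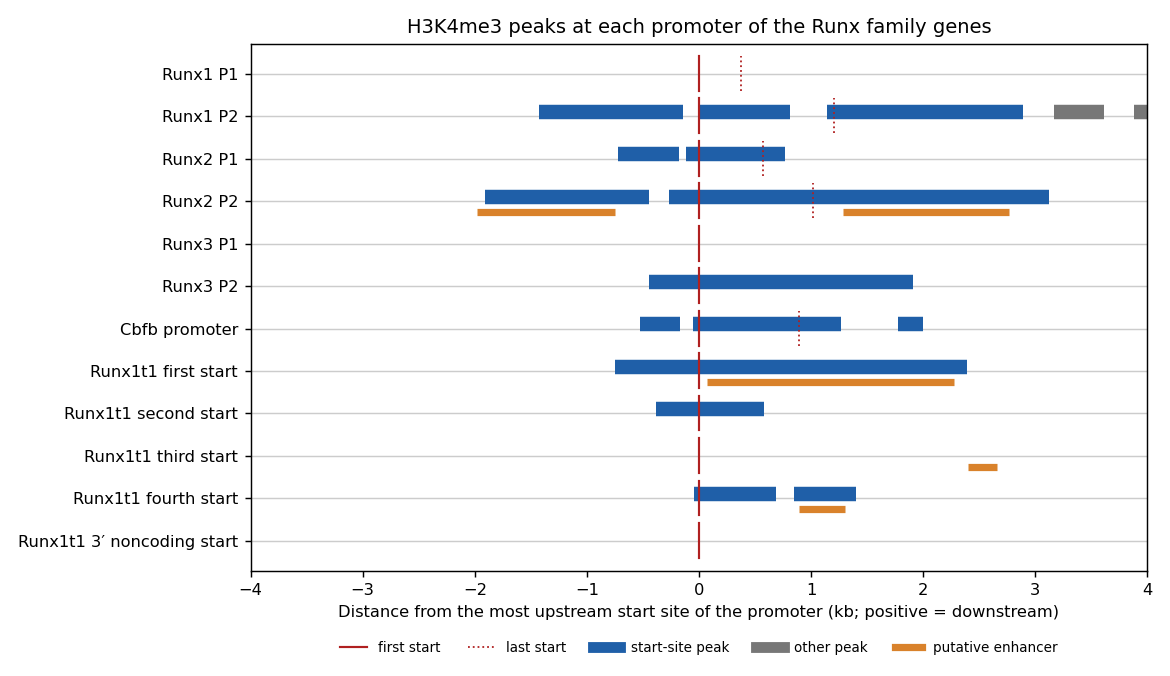
Peaks at each promoter. The x axis is the distance from the most upstream start site of the promoter in kb, solid red lines are the first and dotted red lines the last start site, blue bars are start-site peaks, grey bars other peaks and orange bars putative enhancers. Runx1 P1, Runx3 P1 and the third and 3′ starts of Runx1t1 have no bar at the start, and narrow gaps precede the first start at Runx1 P2, both Runx2 promoters and Cbfb.

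Cbfb, the non-DNA-binding partner, had the smallest summed peak width of the family, 1900 bp. Its 7 start sites lie between 105170674 and 105171564 on chromosome 8, and all were inside a peak of 1319 bp (chr8:105170625-105171943). A peak of 357 bp (chr8:105170152-105170508) lay upstream. A peak of 224 bp (chr8:105172453-105172676) lay in an intron 889 bp downstream of the last start and holds the start site of Gm22063. The observed to expected CpG ratio at the first start was 0.928.

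Runx1t1, the corepressor, was marked at 3 of its 5 start sites. The first start (13743436, chromosome 4, plus strand) lay in a peak of 3135 bp (chr4:13742690-13745824). The second start, 7861 bp downstream, lay in a peak of 959 bp (chr4:13750917-13751875). The fourth start, 41346 bp downstream, lay in a peak of 731 bp (chr4:13784742-13785472), with a peak of 547 bp after it (chr4:13785633-13786179). The ratio of observed to expected CpGs was 0.907, 0.565 and 0.360 at these starts. The third start (ratio 0.249) was 13365 bp from the nearest peak, and the start of a noncoding transcript at the 3′ end (0.309) was 103041 bp from it.

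At 4 promoters of the family a short gap between neighbouring peaks lay directly upstream of the first start. These gaps are printed because the deposited lists give peaks on both sides but none in the gap itself. They were read from GRCm38.p6, 5′ to 3′ on the strand of the gene, with matches to any of 5 motifs in capitals: the Runx core TGTGGT, the GC box GGGCGG, the TATA box TATAAA, AP-1 TGANTCA and TEAD GGAATG, on either strand.
Runx1 P2, chr16:92697342-92697471, minus strand: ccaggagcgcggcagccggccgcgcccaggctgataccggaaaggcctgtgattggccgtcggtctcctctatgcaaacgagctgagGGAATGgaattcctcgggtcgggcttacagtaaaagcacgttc
Runx2 P1, chr17:44814911-44814971, minus strand: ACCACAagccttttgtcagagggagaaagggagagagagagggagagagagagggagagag
Runx2 P2, chr17:44736913-44737095, minus strand: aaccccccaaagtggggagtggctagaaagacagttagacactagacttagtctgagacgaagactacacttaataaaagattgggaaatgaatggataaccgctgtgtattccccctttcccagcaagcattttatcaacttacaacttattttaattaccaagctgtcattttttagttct
Cbfb, chr8:105170509-105170624, plus strand: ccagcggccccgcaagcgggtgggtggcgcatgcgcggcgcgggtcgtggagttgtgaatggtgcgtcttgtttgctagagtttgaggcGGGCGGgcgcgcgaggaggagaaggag
The gaps were 130, 61, 183 and 116 bp long and ended 14, 114, 265 and 50 bp before the start, in this order. Their GC content was 61.5%, 54.1%, 38.8% and 69.0%, and they held 12, 0, 2 and 15 CpGs. The Runx2 P1 gap held a Runx core, the Runx1 P2 gap a TEAD match and the Cbfb gap a GC box, whereas none of the 5 motifs was in the Runx2 P2 gap. A gap of at most 500 bp that begins within 500 bp upstream of the first start was present at 1872 of 12177 marked first start sites of coding genes (15.4%). That share counts only the most upstream start of each gene. It therefore covers starts like Runx2 P1 and Cbfb, but not Runx1 P2 and Runx2 P2, which lie farther downstream in their genes. At Runx3 P2 and at the first Runx1t1 start a single peak spanned the start.

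The motifs were also searched from 250 bases before to 50 after the first GENCODE start. A Runx core was found in 15.3% of coding-gene promoters. It was found at all 3 P1 promoters, 1 time for Runx1, 1 time for Runx2 and 2 times for Runx3, and at none of the P2 promoters. It was also found 1 time each at the fourth start and the 3′ noncoding start of Runx1t1, and not at Cbfb. The Runx3 matches are those of the 18-base stretch, and the Runx2 match is the one in the gap printed above. At P1 of Runx1 and Runx2 the 18-base stretch lies beyond this window, 101 and 191 bases after the GENCODE start, so these matches are others. The GC box, found in 43.0% of coding-gene promoters, was present 4 times at Cbfb, 3 times at Runx3 P2, and 1 time each at Runx2 P2 and at the first start of Runx1t1, and at no P1. AP-1 letters, in 6.91% of promoters, were present at Runx2 P1 among the 6 Runx promoters. TEAD letters, in 13.5% of promoters, were present at Runx1 P2. No TATA box was found at any of the members' promoters.

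Peak widths were then set against all coding genes. The widest start-site peak was 3386 bp for Runx2, 3135 bp for Runx1t1, 2364 bp for Runx3, 1748 bp for Runx1 and 1319 bp for Cbfb. Of the coding genes with a peak, 98.3%, 97.5%, 91.3%, 76.3% and 54.2% had a narrower widest peak, in this order. Runx2 ranked 216 and Runx1t1 321 of 12966. The median over these genes was 1255 bp and the 95th percentile 2688 bp, so that Runx2 and Runx1t1 lay above the latter and Cbfb close to the median. For Runx1 the value depended on the annotation: with RefSeq start sites in place of GENCODE start sites, its widest peak was 1283 bp. The order of the members also depended on how peaks were split. With peaks merged within 1 kb, the widest was 5591 bp for Runx1, 5031 bp for Runx2 and 3135 bp for Runx1t1. Cbfb then had 2525 bp and Runx3 2364 bp. The ranks and shares above hold for the peaks as listed, without merging.

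**Figure D3:**
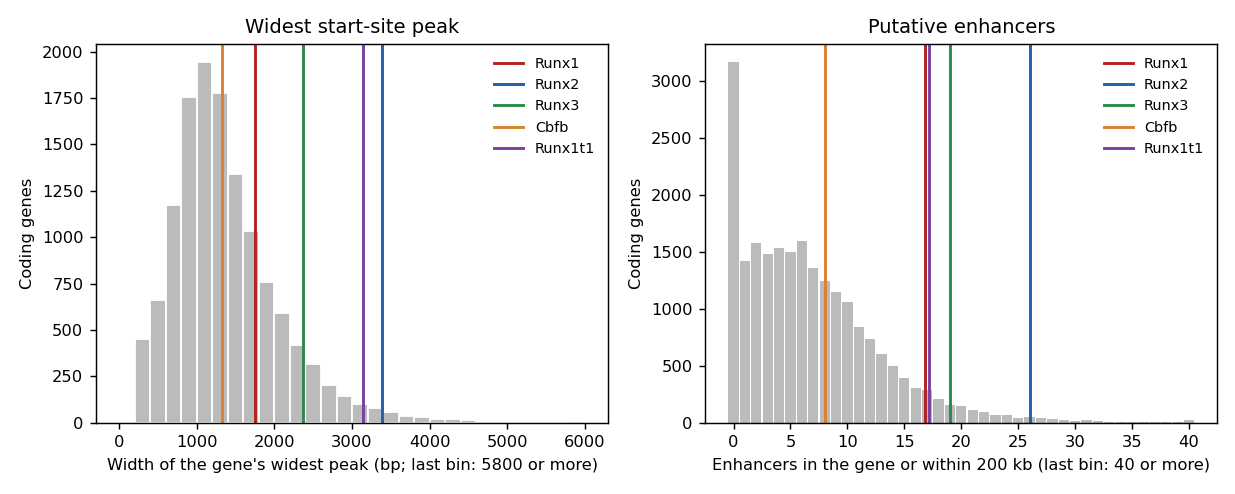
Members among all coding genes. Left, a histogram of the width in bp of the widest start-site peak of the 12966 coding genes with a peak, and right, a histogram of the number of putative enhancers in or within 200 kb of all 21938 coding genes, with 1 coloured line for each member. Runx2 lies at 3386 bp and 26 enhancers, Cbfb at 1319 bp and 8 enhancers.

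Putative enhancers were counted in each gene and within 200 kb of its ends. All 5 members had at least 1, as did 85.6% of coding genes. The counts were 26 for Runx2, 19 for Runx3, 17 each for Runx1 and Runx1t1 and 8 for Cbfb, against a median of 6 and a 95th percentile of 18. Of all coding genes, 98.8% had fewer than Runx2, 95.6% fewer than Runx3, 93.4% fewer than Runx1 or Runx1t1, and 62.2% fewer than Cbfb. Within 100 kb the counts were 9 for Runx1 and 10 for Runx3, and 4 of the 8 at Cbfb had no base within 1 kb of a GENCODE start. Long genes have longer windows. Per 100 kb of window the counts were 3.62 for Runx2, 4.15 for Runx3, 3.09 for Runx1t1, 2.72 for Runx1 and 1.79 for Cbfb (median of coding genes 1.24), so that Runx3 came first on this scale.

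The genes differed in where the enhancers lay. Runx2 held 21 of its 26 in the gene body, Runx1t1 10 of 17 and Runx1 8 of 17, whereas Runx3 held 1 of 19 and Cbfb 1 of 8. The genes differ in length, with 318811 bp for Runx2, 224684 bp for Runx1, 150214 bp for Runx1t1, 57339 bp for Runx3 and 47316 bp for Cbfb. The median coding gene, taken without regard to length, held 0. Around Runx3, 9 enhancers lay upstream and 9 downstream, and 7 of the 19 had Runx3 as the nearest coding gene with a peak. The same held for 21 of 26 at Runx2, 12 of 17 at Runx1, 17 of 17 at Runx1t1 and 3 of 8 at Cbfb. No coding gene besides Runx1t1 lies within 200 kb of it. All 8 enhancers in the body of Runx1 and 20 of the 21 in that of Runx2 lay wholly in introns.

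In the Runx genes, enhancers between the promoters were compared with those after P2. Runx1 had 2 enhancers in the 128821 bp between P1 and P2 and 6 in the 95862 bp from P2 to the end of the gene. Runx2 had 2 in 78149 bp and 19 in 240661 bp. Runx3 had 1 in 31844 bp and 0 in 25494 bp. Per 100 kb this gave 1.55 and 6.26 for Runx1, 2.56 and 7.89 for Runx2, and 3.14 and 0 for Runx3. These counts include enhancers next to Runx2 P2. One of 1233 bp, counted between the promoters, lay 748 bp before P2 and overlapped a start-site peak there. One of 1480 bp, counted after P2, overlapped the other P2 peak. On either side, the enhancer nearest to Runx1 P1 was 46947 bp away and lay between the promoters. Those nearest to Runx2 P1 and Runx3 P1 lay upstream of the gene, 44719 bp and 25138 bp away.

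The 5 enhancers between the promoters were searched for the Runx core. It was present 2 times in the 701-bp Runx1 enhancer (47.6 kb after P1), 1 time in the 417-bp Runx2 enhancer (31.9 kb before P2) and 2 times in the 1007-bp Runx3 enhancer (5.03 kb before P2), and absent from the other two. The stretches with these cores are shown on the strand of the gene, cores in capitals, with up to 15 bases on either side.
Runx1 intronic enhancer, chr16:92777899-92778140, minus strand: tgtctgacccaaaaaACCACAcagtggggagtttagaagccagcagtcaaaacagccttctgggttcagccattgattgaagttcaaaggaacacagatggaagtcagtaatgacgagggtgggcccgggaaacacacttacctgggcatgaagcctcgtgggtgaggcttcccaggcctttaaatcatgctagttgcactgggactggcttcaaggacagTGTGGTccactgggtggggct
Runx2 intronic enhancer, chr17:44768681-44768716, minus strand: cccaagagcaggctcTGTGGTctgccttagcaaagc
Runx3 intronic enhancer, chr4:135146977-135147056, plus strand: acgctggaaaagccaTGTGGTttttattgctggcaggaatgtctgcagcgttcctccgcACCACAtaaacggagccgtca
The cores were 206 bp apart in the Runx1 enhancer and 44 bp apart in the Runx3 enhancer, in opposite orientation in both. Downstream of Runx2 P2, 2 enhancers held both a Runx core and an AP-1 match, one of 534 bp with 2 cores and one of 242 bp with 1. The shorter is printed whole with these in capitals.
Runx2 enhancer after P2, chr17:44727777-44728018, minus strand: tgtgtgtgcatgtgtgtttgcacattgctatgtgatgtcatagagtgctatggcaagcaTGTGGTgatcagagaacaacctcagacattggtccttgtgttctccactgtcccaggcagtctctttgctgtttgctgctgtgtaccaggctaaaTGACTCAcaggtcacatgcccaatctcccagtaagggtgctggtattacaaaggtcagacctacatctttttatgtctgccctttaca

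Of the 87 enhancers of the family, 41 held a Runx core (47.1%), against 35.9% of all 32965 enhancers. The family's enhancers were wider, with a median of 570 bp against 405 bp. Per kb the core occurred 1.02 times in the family's enhancers and 0.970 times in all. Among enhancers of 500 to 1000 bp, 21 of 34 in the family held a core (61.8%) and 48.4% of all. The AP-1 motif was present in 33 of 87 (37.9%) against 30.2%, and 0.742 times per kb against 0.756. TEAD letters were present in 31 of 87 (35.6%) against 32.3%. Per kb they occurred 0.777 and 0.848 times.

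H3K4me3 and enhancer calls overlapped at 8 of the 87 enhancers, against 7.52% of all enhancers. At the members' own start-site peaks there were 4 such overlaps. At Runx2 P2, enhancers of 1480 bp and 1233 bp overlapped the 3386-bp and the 1462-bp peak, and at Runx1t1 an enhancer of 2208 bp lay in the first peak and one of 415 bp in the last. The study's enhancer list was made without regions within 1 kb of a start site, yet 9 of the 87 had a base within 1 kb of a GENCODE start and 6 within 1 kb of a RefSeq start.

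Other peaks near the genes belonged mostly to neighbours, except at Runx1. At no start site were 4 of the 6 other peaks at Runx1, 5 of 16 at Runx3 and 1 of 15 at Cbfb. Runx2 overlaps Supt3, a subunit of the SAGA coactivator complex, on the opposite strand, and the 2 peaks between Runx2 P1 and P2 (826 bp and 349 bp) are at start sites of Supt3. Within 200 kb of Runx1, Rcan1, an inhibitor of calcineurin, had a widest peak of 966 bp and Clic6 had none. Near Runx3, Rsrp1 (1393 bp), Syf2 (695 bp), Clic4 (1551 bp) and Srrm1 (1046 bp) had peaks and Ncmap had none. Near Cbfb, 11 of 21 coding genes had one, namely D230025D16Rik, B3gnt9, Tradd, Fbxl8, Nol3, 4931428F04Rik, E2f4, Lrrc29, Tmem208, Fhod1 and Slc9a5. Their widest peaks ranged from 939 bp at Nol3 to 2623 bp, a peak that Fhod1 and Slc9a5 share. Each Runx gene has a paralogue of the intracellular chloride channel family Clic beside it. Clic6 lies 60.2 kb from Runx1 and had 0 peaks, Clic5 215.8 kb from Runx2 with 1 peak of 806 bp, and Clic4 35978 bp from Runx3 with 2 peaks. Clic5 lies beyond 200 kb and was added after the values were seen.

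Genes most like each member were found over 4 measures of these lists, the width of the widest peak, the number of peaks, the number of enhancers and the gene length. They were Med13l and Asap2 for Runx1, Gse1 and Utrn for Runx2, Kcmf1 and Ndst1 for Runx3, C330007P06Rik and Pfkm for Cbfb, and Hmgb1 and Rreb1 for Runx1t1. Kcmf1, for example, had 1 peak of 2379 bp and 18 enhancers (Euclidean distance of standardized values 0.0737), whereas Utrn, the less close match of Runx2, had 4 peaks, the widest 3263 bp, and 41 enhancers (0.686).

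To place the family among the genes it works with, 3 lists of cofactors and 2 lists of known targets were examined. Every cofactor had a start-site peak, as did 59.1% of all coding genes. All 14 corepressors and Runx1t1 relatives had one (widest peak 849 to 3025 bp, median 1730 bp), with the widest at Tle3, a Groucho-type corepressor. The nuclear receptor corepressor Ncor1 had a peak of 2702 bp. The relatives of Runx1t1 were at the narrow end, Cbfa2t2 with 854 bp and Cbfa2t3 with 849 bp, against 3135 bp for Runx1t1 itself. All 12 coactivators and partners had one (999 to 2957 bp, median 1923 bp). Among them were Smad3, which signals from TGF-beta receptors (2957 bp), the Hippo effectors Wwtr1 (2580 bp) and Yap1 (2547 bp), and the acetyltransferases Ep300 (2060 bp) and Crebbp (2008 bp). All 7 modifying enzymes had one (695 to 3196 bp, median 1684 bp), the widest at Smurf1, a ubiquitin ligase that targets Runx2. For coding genes with a peak the median was 1255 bp.

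Of 13 skeletal targets, 5 had a peak: Vegfa, an angiogenic growth factor (5020 bp), the collagen genes Col1a1 (2761 bp) and Col1a2 (1018 bp), Tnfrsf11b, the decoy receptor osteoprotegerin (954 bp), and Spp1, osteopontin (484 bp). The other 8 had none, namely Alpl, Bglap, Bglap2, Col10a1, Ibsp, Ihh, Mmp13 and Sp7. Of 15 haematopoietic targets, 2 had a peak, Zbtb7b, a regulator of helper T cells (2896 bp), and Foxp3, the factor of regulatory T cells (828 bp). No peak was listed for Cd4, Cd8a, Csf1r, Csf2, Gfi1, Gfi1b, Ifng, Il2, Il3, Itgal, Mpo, Spi1 and Tal1. Of all coding genes, 59.1% had a peak. The counts describe these lists, and nothing particular to Runx targets was tested.

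**Figure D4:**
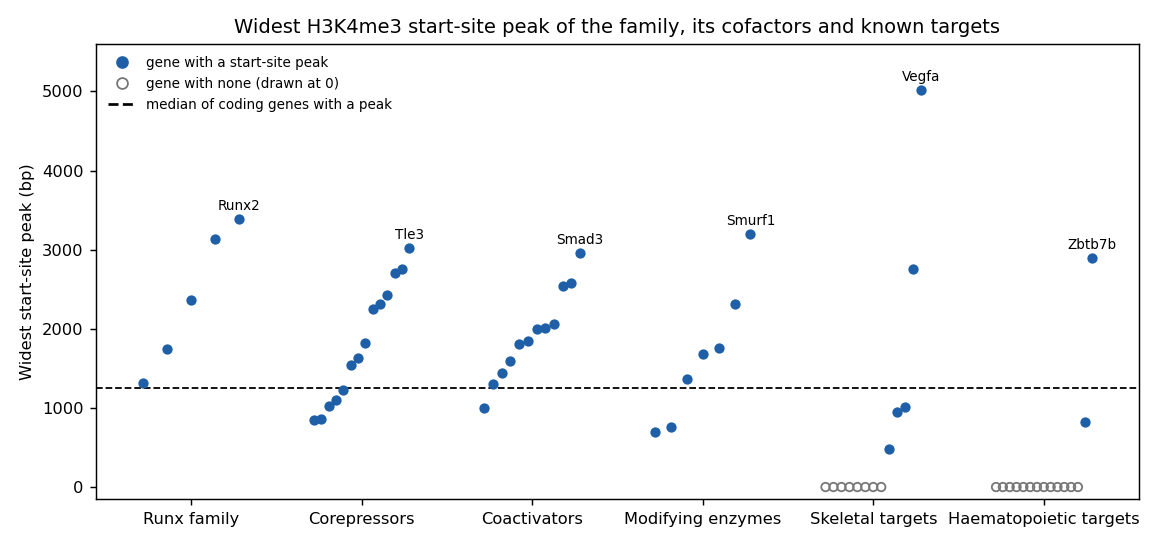
Widest start-site peak in bp of each member and of the genes of the 5 lists, 1 point a gene, with open circles at 0 for genes without a peak and a dashed line at the median of coding genes with a peak (1255 bp). All cofactors are filled points, while 8 of 13 skeletal and 13 of 15 haematopoietic targets are open circles.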

How the data were processed

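The authors trimmed reads with Trim Galore, aligned them with BWA to mm10 (GRCm38.p6), filtered with SAMtools, merged replicates with Picard and called narrow peaks with MACS. Tool versions are not given in the sources used here. Both deposited lists hold a chromosome, a start and an end, no score and 0 columns of values per sample. Peak starts were taken to count from 0, enhancer starts from 1, and all positions printed count from 1. Start sites came from GENCODE M21, while the authors named the genome of release M25. A promoter of a Runx gene was marked when a peak had a base within 1 kb of a start of its class. CpG islands (over 200 bp, GC over 50%, observed to expected CpG over 0.6) were called from the masked genome. The genes named were the members, the lists with their unmarked and widest genes, marked neighbours within 200 kb, genes sharing a peak and the 2 most similar genes. The members, lists and tests were chosen with earlier results of these data known, and no test was run. Functions were tested on simulated data. Python 3.11.15, NumPy 2.4.6, pandas 2.3.3, pysam 0.24.0, Numba 0.67.0 and Matplotlib 3.10.9 were used.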

Additional observations from a re-analysis of the deposited data

How the results depend on the processing

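Of 76 recomputed values, 61 kept within the set limit. With peaks merged within 1 kb, the family had 8 start-site peaks in place of 15, with widest peaks of 5591 bp for Runx1, 5031 bp for Runx2 and 2525 bp for Cbfb. The order by width changed, with Runx1 first and Cbfb above Runx3. With a distance of 500 kb, 154 enhancers were counted in place of 87, and with 100 kb Runx1 had 9 in place of 17 and Runx3 10 in place of 19. Without enhancers near a GENCODE start Cbfb had 4 in place of 8. Runx3 had 7 and Cbfb 3 enhancers when the member had to be the nearest marked gene. RefSeq start sites were added after seeing the data and gave 1283 bp for Runx1. The number of marked P1 and P2 promoters stayed 4 with the start itself inside a peak, with a window of 500 bp and with peaks of at least 500 bp. A gap between neighbouring peaks depends on the peak caller, and its part was not examined. No paired analysis was possible because positions carry no replicate values.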
